A study of Mus musculus with 6 samples.

Results

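The genes that make, inactivate and sense prostaglandin E2 (PGE2) were followed in RNA-seq of mouse dorsal skin. The set was chosen by name and holds 10 of the 21959 genes in the deposited table. The 6 enzyme genes are Ptgs1, Ptgs2, Ptges, Ptges2, Ptges3 and Hpgd, and the 4 receptor genes are Ptger1, Ptger2, Ptger3 and Ptger4. The libraries came from full-thickness dorsal skin of male C57BL/6 mice that were shaved in telogen, the resting phase of the hair cycle, when 7 weeks old. For 7 days the shaved skin received a daily application of vehicle, made of 30% dipropylene glycol and 70% distilled water, in 3 mice, or of 3% rebamipide, a gastroprotective drug, in the other 3. The labels name no transgene or other allele, and each library was poly-A RNA of a piece of whole skin, not of a sorted cell type. The labels do not name the animal behind each library, so that p-values measure the spread between these libraries. The comparison addressed whether topical rebamipide was accompanied by a change in the transcripts of PGE2 metabolism or of the EP receptors, and which EP receptor transcript was the most abundant in skin.

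PGE2 is a lipid signal made from arachidonic acid. Phospholipases A2 release arachidonic acid from membranes, the cyclooxygenases COX-1 (Ptgs1) and COX-2 (Ptgs2) turn it into the unstable intermediate PGH2, and PGE synthases (Ptges, Ptges2, Ptges3) convert PGH2 to PGE2. The dehydrogenase encoded by Hpgd oxidizes PGE2 and ends its activity. PGE2 acts on the receptors EP1 to EP4 (Ptger1 to Ptger4): EP1 signals mainly through calcium, EP2 and EP4 raise cyclic AMP, EP3 mainly lowers it, and EP4 also engages PI3K and ERK. In skin, PGE2 is known for its part in inflammation, wound repair and hair growth.

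The windows around 4 transcription start sites are shown because they belong to the gene that changed with treatment (Ptges2), to its sister synthase that did not pass the test (Ptges), to the cyclooxygenase with the most negative fitted change (Ptgs2) and to the receptor on which the study centred (Ptger4). Each window runs from 250 bases before to 50 bases after the RefSeq start, 5′ to 3′ on the gene's strand, in build GRCm38.p6, which differs from the build GRCm39 of the gene positions given further on. Capitals mark matches on either strand to 6 motifs: the CRE half-site, the E-box, the TATA box, a nuclear receptor half-site, the GC box and the CCAAT box, whose letters are given with their counts.
Ptges2, chr2:32395640-32395939, plus strand: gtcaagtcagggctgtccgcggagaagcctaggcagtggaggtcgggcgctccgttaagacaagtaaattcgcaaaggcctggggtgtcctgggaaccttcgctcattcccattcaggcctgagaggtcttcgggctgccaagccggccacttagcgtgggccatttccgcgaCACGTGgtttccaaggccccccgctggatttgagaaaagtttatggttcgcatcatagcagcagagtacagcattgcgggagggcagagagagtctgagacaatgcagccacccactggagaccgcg
Ptges, chr2:30903248-30903547, minus strand: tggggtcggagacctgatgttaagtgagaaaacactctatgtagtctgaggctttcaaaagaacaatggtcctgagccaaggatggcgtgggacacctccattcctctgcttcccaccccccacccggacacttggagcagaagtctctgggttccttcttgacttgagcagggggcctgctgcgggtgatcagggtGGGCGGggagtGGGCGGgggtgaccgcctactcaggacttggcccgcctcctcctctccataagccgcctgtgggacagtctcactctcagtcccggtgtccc
Ptgs2, chr1:150099781-150100080, plus strand: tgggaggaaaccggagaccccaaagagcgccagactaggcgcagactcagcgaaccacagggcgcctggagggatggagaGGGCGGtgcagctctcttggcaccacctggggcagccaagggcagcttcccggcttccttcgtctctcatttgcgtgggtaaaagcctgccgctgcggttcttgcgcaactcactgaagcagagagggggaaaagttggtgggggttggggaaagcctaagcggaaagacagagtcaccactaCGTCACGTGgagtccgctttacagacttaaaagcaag
Ptger4, chr15:5244138-5244437, minus strand: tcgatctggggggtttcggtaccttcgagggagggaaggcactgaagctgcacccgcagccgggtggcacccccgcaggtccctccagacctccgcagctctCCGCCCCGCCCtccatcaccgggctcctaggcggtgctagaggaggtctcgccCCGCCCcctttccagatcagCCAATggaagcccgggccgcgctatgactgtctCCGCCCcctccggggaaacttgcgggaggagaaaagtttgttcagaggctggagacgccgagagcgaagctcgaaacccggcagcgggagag
RefSeq windows were found for 9 of the 10 genes, with Ptger1 unmatched. The Ptges2 window holds 1 E-box, at bases -77 to -72 from the start, and none of the other 5 motifs. The E-box, searched as CACGTG, was in 7.15% of the 32851 windows of all genes. In the Ptgs2 window a CRE half-site at +14 to +18 and an E-box at +17 to +22 share 2 bases, beside 1 GC box at -170 to -165. The CRE half-site, with the letters TGACG, was in 20.8% of all windows. The other CRE half-site of the set was at +12 to +16 of Ptges3, and a TATA box (TATAAA), a motif in 13.6% of all windows, was found at +5 to +10 of Hpgd. GC boxes (GGGCGG), present in 35.7% of all windows, numbered 2 in Ptges and 4 in Ptger4, and CCAAT boxes, present in 37.4%, were in Ptger2 and Ptger4. The nuclear receptor half-site AGGTCA, in 16.3% of all windows, was in none of the 9. GC content of the windows was 58.7% for Ptges2, 60% for Ptges, 59.3% for Ptgs2 and 67% for Ptger4, against a median of 52.7% over all windows. A match describes letters in a window and is not a binding site.

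The libraries differed in more than treatment. Total counts were 38676018 to 39915276 in the vehicle group and 32709801 to 34706852 in the rebamipide group, and genes of the mitochondrial genome took 2.59% to 5.36% and 13.3% to 22% of them. The labelled tissue was checked with marker lists, each summed as normalized CPM (read counts relative to library size, scaled with edgeR's TMM factors). The 7 basal keratinocyte markers summed to 2513 to 4053 CPM with vehicle and 144 to 1183 CPM with rebamipide, and the 8 suprabasal ones to 1582 to 5614 and 5.38 to 1409. Neither list had a member past the adjusted test, and both sums were lower in every rebamipide library. In rebamipide replicate 3 the defining keratin genes Krt14 and Krt15 had 0 counts, so that its epidermal markers went against the label skin. A count of 0 allows up to 3 counts, for counting error only. Markers of growing hair follicles, the opposite of the labelled telogen, summed to 18041 CPM in vehicle replicate 1, 8277 in vehicle replicate 2 and 0.153 to 901 in the other 4 libraries. Adipocyte markers summed to 1933 to 5261 CPM in the vehicle group and 10922 to 21012 in the rebamipide group, with 5 of 9 higher, and the 8 brown adipocyte markers to 243 to 423 and 5065 to 13188, with 6 higher. Of the latter, Ucp1 had 0 counts in every vehicle library and 81048, 220449 and 150572 in rebamipide replicates 1 to 3. Elovl3 went the other way, with 176, 129 and 238 CPM with vehicle and 82.3, 83.1 and 33.3 CPM with rebamipide. Endothelial markers summed to 266 to 667 and 1241 to 1771 CPM, with 4 of 8 higher. Fibroblast markers summed to 12310 to 18767 CPM with vehicle, and to 15795, 3711 and 1972 CPM in rebamipide replicates 1 to 3. Macrophage markers ranged from 342 to 815 and from 173 to 691 CPM. Fast skeletal muscle markers summed to 3757, 15163 and 19321 CPM in vehicle replicates 1 to 3, and to 22874, 4866 and 191 CPM in rebamipide replicates 1 to 3. Smooth muscle and pericyte markers summed to 435 to 596 CPM with vehicle and 694 to 1131 CPM with rebamipide, with 0 of 7 called. In bulk tissue fewer cells of a type and less RNA per cell cannot be told apart, and the part of tissue composition in any result below was not tested. The fitted changes of the 10 genes are therefore also given without vehicle replicate 1 and without rebamipide replicate 3, and for the other genes of the pathway the counts of calls are.

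All 10 genes passed the expression filter and were tested with edgeR's quasi-likelihood test among 14875 genes. After Benjamini-Hochberg adjustment, 1 of the 10, Ptges2, rose, against 14.1% of all genes tested that were higher. Of the 10 genes 0 fell, against 6.51% of all genes. At an unadjusted p under 0.05 edgeR placed 3 genes higher (Ptges2, Ptger1 and Ptger2), beside 20.9% of all genes, and 2 lower (Ptgs2 and Hpgd), beside 18.8%. DESeq2, which the study itself used, called after adjustment 2 genes higher (Ptges2 and Ptger2) and 2 lower (Ptgs2 and Hpgd), beside 16.2% higher and 15.5% lower among the 16433 genes to which it gave an adjusted p. Under the study's own criteria (p under 0.05 before adjustment and a log2 fold change beyond 1 in size) edgeR placed 3 genes higher (14.3% of all genes) and 1 gene, Ptgs2, lower (14.5% of all genes). Without any overlap between the 3 vehicle and 3 rebamipide values, 2 genes (Ptges2 and Ptger2) were higher, beside 24.5% of all genes, and 2 (Ptgs2 and Hpgd) were lower, beside 24%. The median log2 fold change was -0.48 over the 10 genes and -0.17 over all genes tested, and with scaling by total counts alone the median over all genes moved to -0.78.

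**Figure D1:**
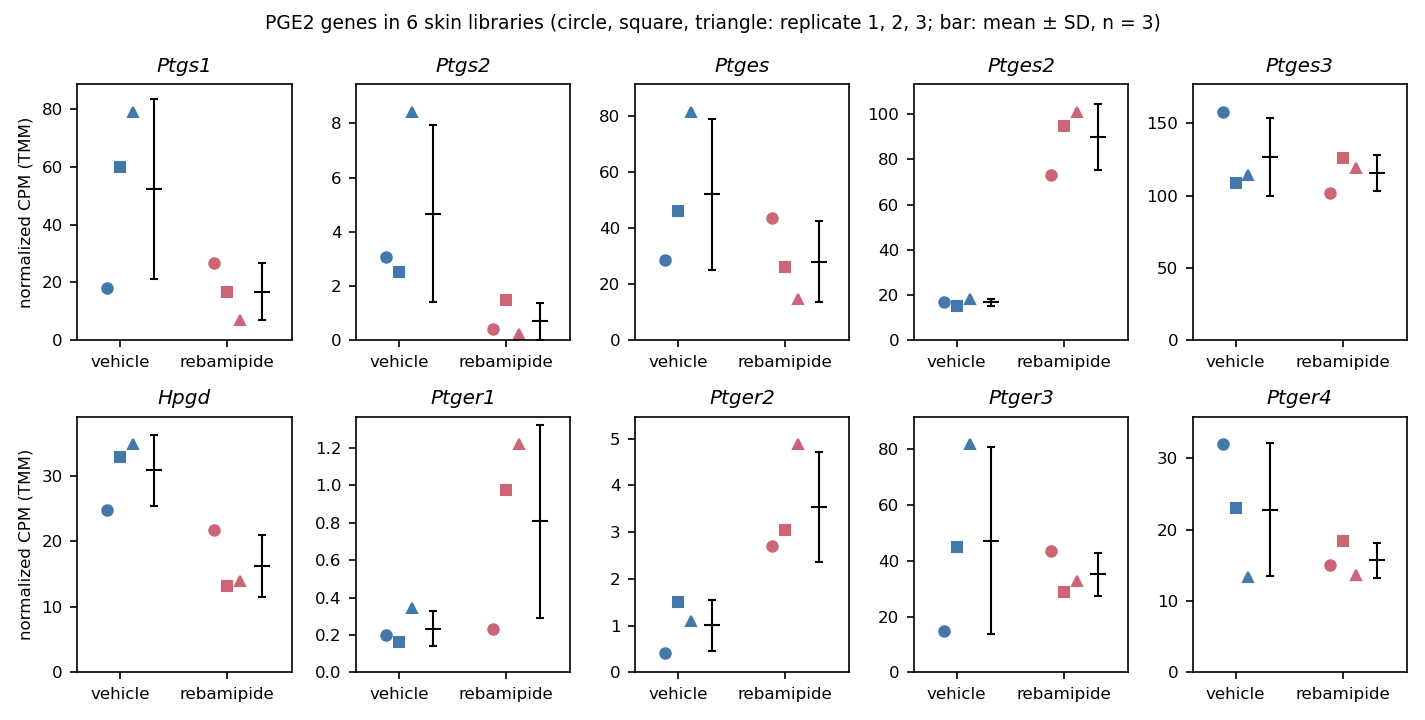
Normalized CPM (y axis, TMM scaled, each panel on its own scale from 0) of the 10 PGE2 genes in the 3 vehicle (blue) and 3 rebamipide (red) libraries, with black bars for mean ± SD, n = 3. Ptges2 sits at 15.3 to 18.2 CPM with vehicle and 73.2 to 101 CPM with rebamipide, while Ptgs1, Ptges, Ptges3, Ptger1, Ptger3 and Ptger4 overlap between groups.

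The cyclooxygenase genes opened the pathway. Ptgs1 (ENSMUSG00000047250, GRCm39 chr2:36120438-36142284, plus strand) encodes COX-1, the form present in most tissues. Its normalized CPM were 18, 60.1 and 79.1 in vehicle replicates 1 to 3 and 26.7, 16.8 and 6.98 in rebamipide replicates 1 to 3. Vehicle replicate 1 was low like the rebamipide libraries, so the groups overlapped. The means were 52.4 ± 31.2 and 16.8 ± 9.86 CPM (SD, n = 3). The fitted log2 fold change of Ptgs1 was -1.64 with a standard error of 0.68 (edgeR, adjusted p = 0.128). Without vehicle replicate 1 it was -2.06 (adjusted p = 0.0835) and without rebamipide replicate 3 it was -1.26 (adjusted p = 0.233).

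Ptgs2 (ENSMUSG00000032487, GRCm39 chr1:149975782-149983978, plus strand) encodes COX-2, the form that inflammatory and growth signals induce. It was counted with 153, 124 and 394 reads in the vehicle libraries and 12, 38 and 6 reads in the rebamipide libraries, which is 3.06, 2.52 and 8.42 against 0.395, 1.48 and 0.229 CPM. All rebamipide values lay below all vehicle values, and vehicle replicate 3 stood above the rest. The log2 fold change of Ptgs2 was -2.73 ± 0.87 (standard error), the most negative of the set, with an adjusted p of 0.0702 in edgeR. The two-sided exact permutation test on CPM gave p = 0.1, the smallest value that 3 against 3 libraries allow. DESeq2 gave an adjusted p of 0.00554 for Ptgs2 in all 6 libraries and called it in 5 of 6 fits without 1 library, the exception being without vehicle replicate 3 (adjusted p = 0.0797). Without rebamipide replicate 3, edgeR gave -2.31 (adjusted p = 0.138), and without vehicle replicate 1 it gave -3.01 (adjusted p = 0.105).

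The synthases that take PGH2 to PGE2 behaved unequally. Ptges (ENSMUSG00000050737, GRCm39 chr2:30779483-30819875, minus strand) encodes microsomal PGE synthase-1, the inducible partner of COX-2. Its CPM were 28.5, 46.1 and 81.4 with vehicle and 43.4, 26 and 14.7 with rebamipide. The values of the groups interleaved, and the spread within the vehicle group was as wide as the distance between the means of 52 ± 27 and 28 ± 14.5 CPM. edgeR gave a log2 fold change of -0.89 ± 0.52 (adjusted p = 0.245) for Ptges, and -1.20 (adjusted p = 0.187) without vehicle replicate 1 and -0.58 (adjusted p = 0.471) without rebamipide replicate 3.

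Ptges2 (ENSMUSG00000026820, GRCm39 chr2:32285908-32295784, plus strand), for microsomal PGE synthase-2, was the gene that rose. Its counts were 835, 755 and 851 in the vehicle libraries and 2223, 2435 and 2649 in the rebamipide libraries, although the latter were sequenced less deeply. In CPM these were 16.7, 15.3 and 18.2 against 73.2, 94.9 and 101. Every rebamipide library was far above every vehicle library, and the vehicle values differed little among themselves. Means were 16.8 ± 1.43 and 89.7 ± 14.6 CPM (SD, n = 3), and the log2 fold change was 2.42 ± 0.20, a 5.36-fold rise with an unadjusted p of 1.49e-05 and an adjusted p of 0.00939 (edgeR). The exact permutation p was 0.1, the smallest possible. Without vehicle replicate 1 the log2 fold change was 2.39 (adjusted p = 0.0317) and without rebamipide replicate 3 it was 2.33 (adjusted p = 0.0206). The adjusted p reached 0.0747 without vehicle replicate 2 and 0.0573 without rebamipide replicate 2, fits in which edgeR called 0 and 1 of all genes, with 2330 and 2397 genes higher at an unadjusted p under 0.05. In the same fits DESeq2 called 2662 and 1952 genes higher. DESeq2 called Ptges2 higher in all 6 fits without 1 library.

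Ptges3 (ENSMUSG00000071072, GRCm39 chr10:127894823-127913141, plus strand) encodes cytosolic PGE synthase, also known as the Hsp90 co-chaperone p23. Its CPM were 158, 109 and 114 with vehicle and 102, 126 and 119 with rebamipide. Only vehicle replicate 1 stood higher than the others. The log2 fold change of Ptges3 was -0.14 ± 0.22 (edgeR, adjusted p = 0.665), next to the median of -0.17 over all genes. Its direction turned to 0.02 without vehicle replicate 1, it was -0.15 without rebamipide replicate 3, and with total counts alone as the scale it was -0.77 (adjusted p = 0.0402), next to the median of -0.78 on that scale.

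Hpgd (ENSMUSG00000031613, GRCm39 chr8:56747620-56774078, plus strand) encodes 15-hydroxyprostaglandin dehydrogenase, the first step of PGE2 inactivation. It reached 24.7, 32.9 and 34.8 CPM with vehicle and 21.7, 13.1 and 13.9 CPM with rebamipide. The groups did not overlap, but rebamipide replicate 1 lay close to vehicle replicate 1. The log2 fold change was -0.92 ± 0.28 (edgeR, adjusted p = 0.064, exact permutation p = 0.1), and DESeq2 gave an adjusted p of 0.0288. The DESeq2 call was lost without vehicle replicate 3 (-0.81, adjusted p = 0.1), without rebamipide replicate 2 (-0.78, adjusted p = 0.141) and without rebamipide replicate 3 (-0.79, adjusted p = 0.132). Leaving out rebamipide replicate 1 gave -1.18 (edgeR, adjusted p = 0.022), while edgeR gave -1.07 (adjusted p = 0.0822) without vehicle replicate 1 and -0.82 (adjusted p = 0.171) without rebamipide replicate 3. The ratio of Ptges to Hpgd within a library, which no scaling between libraries alters, was 0.493, 0.6 and 1 with vehicle and 0.857, 0.849 and 0.453 with rebamipide, on FPKM. The balance of these synthesis and breakdown transcripts overlapped between groups, with a log2 difference of 0.05 (exact permutation p = 1).

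**Figure D2:**
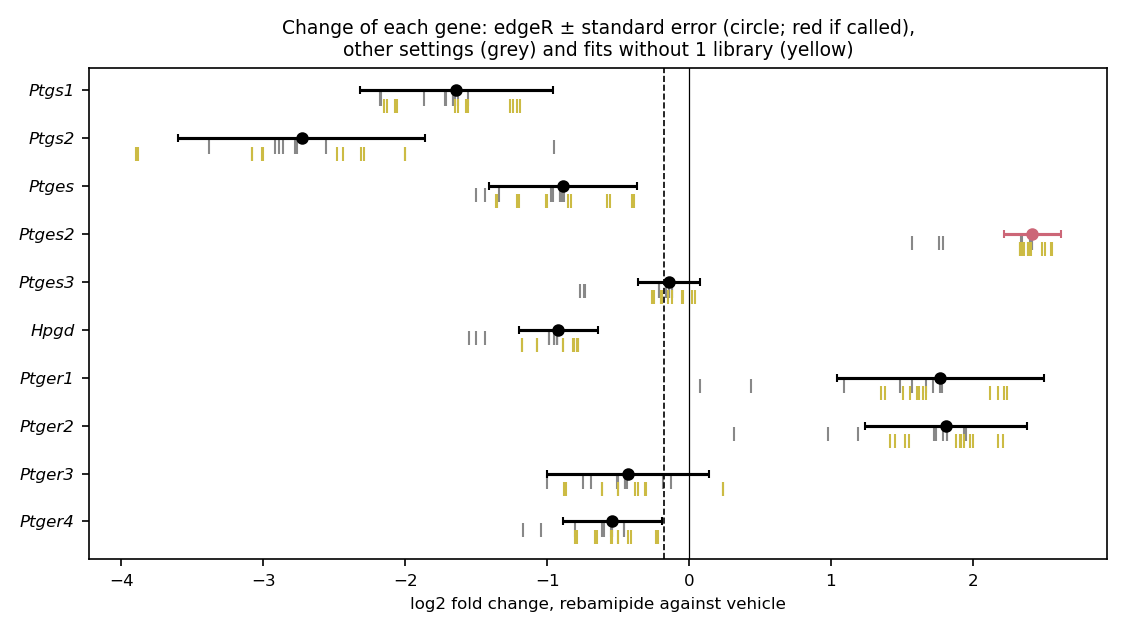
Log2 fold change of rebamipide against vehicle (x axis) for the 10 PGE2 genes, as edgeR value ± standard error (circles, red where called), under other settings with all libraries (grey) and in edgeR and DESeq2 fits without 1 library (yellow). The dashed line is the median of all genes tested, -0.17, and Ptges2 stays between 1.57 and 2.56 throughout.

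Levels of different genes were compared on the deposited FPKM, which divide counts by gene length. With vehicle the order of the enzymes by mean FPKM was Ptges3 (71.2 ± 16.9), Hpgd (22.6 ± 3.36), Ptgs1 (16.6 ± 9.6), Ptges (16.3 ± 8.05), Ptges2 (4.1 ± 0.322) and Ptgs2 (1.25 ± 0.846). With rebamipide it was Ptges3 (41.8 ± 1.26), Ptges2 (14.2 ± 0.84), Hpgd (8.01 ± 3.44), Ptges (6.01 ± 3.83), Ptgs1 (3.66 ± 2.54) and Ptgs2 (0.12 ± 0.107). Ptges2 thus stood at rank 5 in each vehicle library and at rank 2 in each rebamipide library, whereas Ptges3 was first and Ptgs2 last in all 6. Some neighbours in the order did not differ beyond their spread. Ptgs1 exceeded Ptges in 1 of 3 vehicle libraries, with a mean log2 ratio of -0.09 ± 0.52 (SD). Hpgd exceeded Ptges in 5 of 6 libraries, with a log2 ratio of 0.56 ± 0.47, and in vehicle replicate 3 both were at 25 FPKM. Between Ptges3 and the next enzyme the log2 ratio was 1.64 ± 0.55 with vehicle and 1.56 ± 0.13 with rebamipide.

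**Figure D3:**
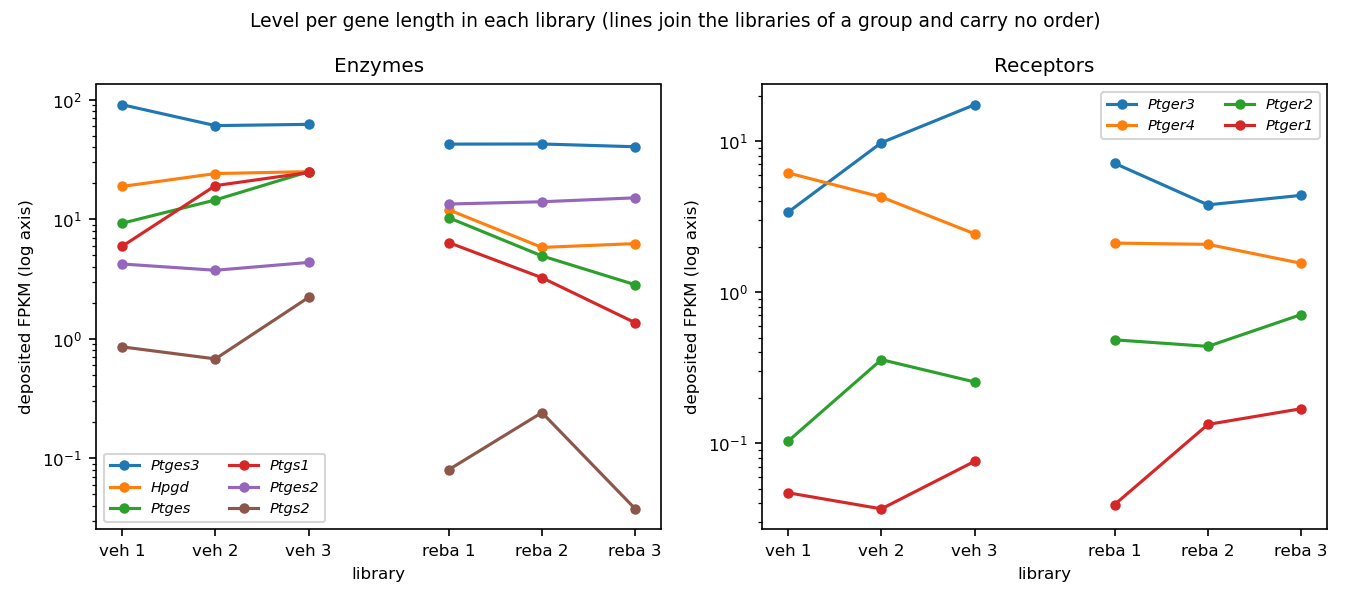
Deposited FPKM (log axis) of the 6 enzyme genes and the 4 receptor genes in each library. Ptges2 moves from 3.74 to 4.35 FPKM with vehicle to 13.4 to 15.1 with rebamipide, and Ptger3 lies above Ptger4 in 5 of the 6 libraries.

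The pair of microsomal synthases stood in opposite order in the groups. The ratio of Ptges2 to Ptges in FPKM was 0.457, 0.259 and 0.174 in the vehicle libraries and 1.31, 2.84 and 5.33 in the rebamipide libraries. Ptges was the more abundant in every vehicle library and Ptges2 in every rebamipide library. The log2 ratio differed by 3.31 (exact permutation p = 0.1, the smallest possible), from -1.87 ± 0.70 to 1.44 ± 1.01, and this ratio was chosen after its values were seen. Its difference was 3.68 without vehicle replicate 1 and 2.82 without rebamipide replicate 3. Of the FPKM of all 3 synthases Ptges2 took 4.51% ± 0.4 with vehicle and 23% ± 2.81 with rebamipide, and Ptges3 took 77.3% ± 9.59 and 67.6% ± 2.9. Ptges against the 3 synthases together differed by -0.96 in log2 ratio with overlapping groups (exact permutation p = 0.2). For the cyclooxygenases, Ptgs1 made up 87.4% to 96.6% of their summed FPKM with vehicle and 93.1% to 98.8% with rebamipide, and the log2 ratio of Ptgs1 to Ptgs2 differed by 1.38 (exact permutation p = 0.2).

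**Figure D4:**
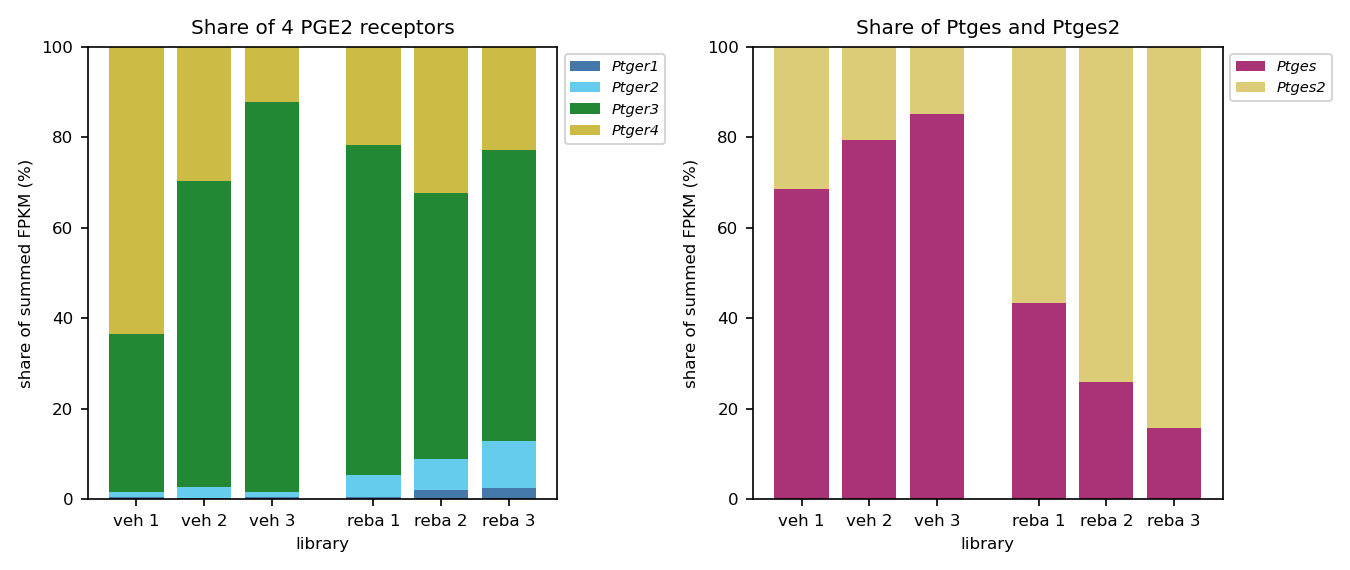
Share of summed FPKM (%, stacked bars per library) for the 4 PGE2 receptors and for the pair Ptges and Ptges2. Ptger4 takes 12.1% to 63.5% of the receptor sum with vehicle and 21.7% to 32.2% with rebamipide, and Ptges2 takes 14.8% to 31.4% and 56.7% to 84.2% of its pair.

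Of the receptors, Ptger3 and Ptger4 made up nearly all of the FPKM. Ptger3 (ENSMUSG00000040016, GRCm39 chr3:157272529-157351525, plus strand) encodes EP3, the receptor that mainly lowers cyclic AMP. Its CPM were 15, 45 and 81.8 with vehicle and 43.6, 28.8 and 32.9 with rebamipide. The rebamipide values fell inside the wide vehicle range. edgeR gave -0.43 ± 0.57 (adjusted p = 0.599) for Ptger3, and the sign turned without vehicle replicate 3 (0.24, adjusted p = 0.772). Without vehicle replicate 1 the value was -0.88 (adjusted p = 0.155) and without rebamipide replicate 3 it was -0.38 (adjusted p = 0.738).

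Ptger4 (ENSMUSG00000039942, GRCm39 chr15:5236142-5273668, minus strand) encodes EP4, which raises cyclic AMP and which the study examined as a binding partner of rebamipide. Its counts were 1598, 1131 and 625 in the vehicle libraries and 459, 472 and 357 in the rebamipide libraries, or 32, 23 and 13.4 against 15.1, 18.4 and 13.6 CPM. On the CPM scale vehicle replicate 3 was below all 3 rebamipide libraries, and vehicle replicate 1 was the highest. On the deposited FPKM, which are not TMM scaled, the vehicle values of 6.15, 4.26 and 2.43 were all above the rebamipide values of 2.11, 2.07 and 1.55. Ptger4 had a log2 fold change of -0.54 ± 0.35 (edgeR, adjusted p = 0.294, exact permutation p = 0.4), and of -1.17 (adjusted p = 0.0558) with total counts alone as the scale, on which the median over all genes was -0.78. Without vehicle replicate 1 it was -0.23 (adjusted p = 0.591), and without rebamipide replicate 3 it was -0.43 (adjusted p = 0.52). Beside these vehicle values, the summed growing follicle markers were 18041, 8277 and 190 CPM in the same 3 libraries, and their part in the spread of Ptger4 was not tested. Ptger4 shares 11676 bases with Ttc33 on the opposite strand, and since the strand setting of the counting is not given in the sources used here, reads of these genes cannot be told apart there.

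Ptger2 and Ptger1 were low. Ptger2 (ENSMUSG00000037759, GRCm39 chr14:45225652-45241277, plus strand), for EP2, the other receptor that raises cyclic AMP, was counted with 21, 74 and 51 reads with vehicle and 82, 78 and 128 with rebamipide. In CPM these were 0.421, 1.5 and 1.09 against 2.7, 3.04 and 4.88, so that every rebamipide library lay above every vehicle library. Ptger2 had a log2 fold change of 1.81 ± 0.57 with an adjusted p of 0.0672 in edgeR and 0.0116 in DESeq2 (exact permutation p = 0.1), and the DESeq2 call was lost without rebamipide replicate 3 (adjusted p = 0.0712). Without vehicle replicate 1 edgeR gave 1.42 (adjusted p = 0.0924) and without rebamipide replicate 3 it gave 1.52 (adjusted p = 0.168). Ptger1 (ENSMUSG00000019464, GRCm39 chr8:84393307-84399382, plus strand), for EP1, had 10, 8 and 16 reads with vehicle and 7, 25 and 32 with rebamipide. Rebamipide replicate 1 fell among the vehicle libraries. Its log2 fold change was 1.77 ± 0.73 (edgeR, adjusted p = 0.125), with 1.61 without vehicle replicate 1, 1.35 without rebamipide replicate 3 and 2.22 (adjusted p = 0.0356) without rebamipide replicate 1. The source of the few Ptger1 reads was not tested.

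By mean FPKM the receptor order was Ptger3, Ptger4, Ptger2 and Ptger1 in both groups. Vehicle means were 10.2 ± 7.02, 4.28 ± 1.86, 0.238 ± 0.128 and 0.0531 ± 0.0203 FPKM, and rebamipide means were 5.09 ± 1.78, 1.91 ± 0.313, 0.543 ± 0.146 and 0.114 ± 0.067. Ptger3 and Ptger4 were not separated with vehicle, since their log2 ratio was 1.06 ± 1.86 (SD, n = 3) and Ptger4 led in vehicle replicate 1 with 6.15 against 3.38 FPKM. With rebamipide Ptger3 led in all 3 libraries by a log2 ratio of 1.37 ± 0.45. Ptger4 exceeded Ptger2 in 6 of 6 libraries by 3.04 ± 1.65, and Ptger2 exceeded Ptger1 in 6 of 6 by 2.26 ± 0.97 on the log2 scale. Ptger4 took 63.5%, 29.6% and 12.1% of the summed receptor FPKM with vehicle and 21.7%, 32.2% and 22.8% with rebamipide. The vehicle libraries thus spanned the whole range of the rebamipide libraries, and the log2 difference of this share was -0.17 (exact permutation p = 0.8). The ratio of Ptger3 to Ptger4 differed by 0.32 (exact permutation p = 0.8), with the opposite sign, -0.64, without vehicle replicate 1. Ptger2 went from 1.6% ± 0.764 to 7.4% ± 2.8 of the receptor sum.

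Other genes of the pathway were described with 8 lists, of which 91 of 97 genes were tested. After adjustment 23 rose and 8 fell, where 14.1% of all genes tested were called higher and 6.51% lower, shares against which the adjusted edgeR counts of each list below stand too. The lists had a median log2 fold change of 0.04 beside -0.17 over all genes. Without vehicle replicate 2, and likewise without rebamipide replicate 2, edgeR called 0 of these genes in either direction (24 higher at an unadjusted p under 0.05 in both fits), where DESeq2 called 26 and 22 higher. Without vehicle replicate 1 edgeR called 17 higher and 6 lower, and without rebamipide replicate 3 it called 17 higher and 3 lower. DESeq2 on all libraries called 25 higher and 16 lower, beside its shares of 16.2% and 15.5% over all genes. Counts of a list at an unadjusted p under 0.05 in edgeR stand against 20.9% higher and 18.8% lower over all genes, and counts of a list in DESeq2 against its own shares.

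Upstream of the cyclooxygenases, 12 of 16 phospholipase A2 genes were tested, of which 2 rose and 2 fell, with a median log2 fold change of -1.98. Pla2g12a, a secreted form, rose by 1.86 ± 0.26 (edgeR, adjusted p = 0.0104), from 26.2 ± 4.73 to 95.1 ± 22.9 CPM. Pla2g6, a calcium-independent form, rose by 1.13 ± 0.26, from 13.4 ± 3.07 to 29.3 ± 4.69 CPM. Pla2g3, another secreted form, fell by 2.50 on the log2 scale, from 3.34 ± 1.51 to 0.588 ± 0.246 CPM. Pla2g4a, the cytosolic enzyme best known for feeding COX-2, went from 20, 29.4 and 18.7 CPM to 6.32, 3.51 and 0.763 CPM and fell by 2.68 (edgeR, adjusted p = 0.0484). It is named for its role and was chosen after its values were seen.

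Of 8 genes for PGE2 transport and later breakdown, 3 rose and 0 fell. At an unadjusted p under 0.05 edgeR placed 1 lower, and DESeq2 called 1 lower. Ptgr2 and Zadh2 encode reductases of 15-keto-prostaglandins, the product of Hpgd. Ptgr2 rose from 24.2 ± 4.01 to 143 ± 55.8 CPM, by 2.57 ± 0.36 on the log2 scale (edgeR, adjusted p = 0.0107). Zadh2 rose from 63.4 ± 7.52 to 235 ± 74.7 CPM, by 1.89 ± 0.30 (edgeR, adjusted p = 0.0131). Cbr1, a carbonyl reductase that can turn PGE2 into PGF2α, rose from 22.6 ± 2.38 to 71.5 ± 19.3 CPM. These 3 genes lay higher in every rebamipide library, as did 24.5% of all genes. Hpgd lay lower in every one, as did 24% of all genes. Ptgr1, a further reductase of this step, named after its values were seen, lay lower in every rebamipide library, with 49.9 ± 16.2 and 13.3 ± 9.39 CPM and a log2 fold change of -1.91 ± 0.64 (edgeR, adjusted p = 0.0786). The prostaglandin transporter gene Slco2a1, also named after its values were seen, lay lower in every one as well, at -1.32 ± 0.67 (edgeR, adjusted p = 0.188).

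**Figure D5:**
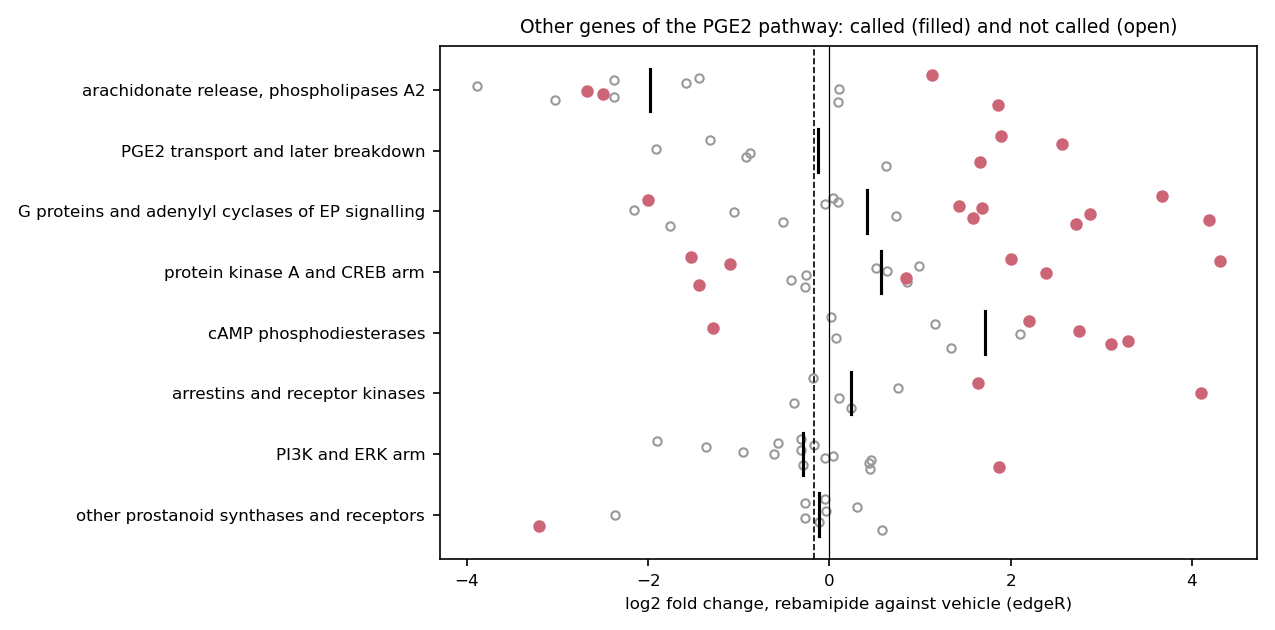
Log2 fold change (x axis, edgeR) of the tested genes in 8 lists of the PGE2 pathway, filled red where called and open where not, with a short black bar at the median of each list. The cAMP phosphodiesterase list has the highest median (1.72) and the phospholipase A2 list the lowest (-1.98), and the dashed line marks all genes (-0.17).

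Behind the receptors, 7 of 16 G protein and adenylyl cyclase genes rose and 1 fell. Adcy3, an adenylyl cyclase that makes cyclic AMP, rose from 10.4 ± 2.24 to 190 ± 118 CPM (log2 fold change 4.19 ± 0.58, edgeR adjusted p = 0.0104). Gna11, a G protein subunit of the calcium arm, rose from 52 ± 1.64 to 140 ± 26.6 CPM. Gnai3, a subunit that inhibits adenylyl cyclase, fell from 179 ± 4.14 to 44.8 ± 11.8 CPM (-2.00 ± 0.24, edgeR adjusted p = 0.00939). In the protein kinase A and CREB list 4 of 14 rose and 3 fell. Prkaca, the catalytic subunit, rose from 95.7 ± 6.87 to 502 ± 131 CPM, and Prkar2b, a regulatory subunit abundant in fat, from 58.5 ± 13.3 to 1161 ± 681 CPM. Rapgef3, a cyclic AMP sensor outside the kinase, rose from 7.98 ± 2.23 to 31.9 ± 9.16 CPM. The 3 that fell, named after their values were seen, were Creb1, Prkar2a and Rapgef4. Creb1 fell from 30.7 ± 3.85 to 11.3 ± 3.26 CPM (edgeR, adjusted p = 0.0227). Prkar2a fell from 128 ± 4.19 to 59.5 ± 17.2 CPM (edgeR, adjusted p = 0.0293). Rapgef4 fell from 7.51 ± 1.59 to 2.59 ± 0.6 CPM (edgeR, adjusted p = 0.028). The adipocyte, brown adipocyte, endothelial, and smooth muscle and pericyte marker sums were higher in the same 3 rebamipide libraries. The part of tissue composition in these rises and falls was not tested.

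Among genes that end the signal, of 10 cAMP phosphodiesterases, 4 rose and 1 fell. Pde4a rose from 11.4 ± 6.21 to 112 ± 36.2 CPM and Pde4d from 27.3 ± 15.6 to 183 ± 80.3 CPM, whereas Pde7a fell from 22.7 ± 2.57 to 9.33 ± 1.84 CPM. Of 7 arrestins and receptor kinases, 2 rose and 0 fell, also by unadjusted p under 0.05 in edgeR and in DESeq2. Grk3 rose from 10.4 ± 4.95 to 179 ± 83.8 CPM and Grk5 from 28.9 ± 8.07 to 89.8 ± 22.5 CPM, while Arrb2, a β-arrestin, had 16.8 ± 0.399 and 12.8 ± 2.99 CPM (edgeR, adjusted p = 0.274). In the PI3K and ERK list, the other arm of EP4, 1 of 15 rose and 0 fell, with 3 higher and 2 lower at an unadjusted p under 0.05, and 1 higher and 2 lower in DESeq2. Map2k1 and Map2k2, the kinases that activate ERK, were higher in every rebamipide library, as were 24.5% of all genes. Their log2 fold changes were 0.44 ± 0.17 (edgeR, adjusted p = 0.106) and 0.46 ± 0.15 (adjusted p = 0.0745), and they were named after their values were seen. Akt2, a kinase of insulin and PI3K signalling, rose from 181 ± 36.4 to 661 ± 106 CPM. Pik3cb, a catalytic PI3K subunit, had 53.3 ± 15 and 27.6 ± 4.22 CPM (edgeR, adjusted p = 0.0549), and the regulatory subunit Pik3r3 had 24.2 ± 14.8 and 6.49 ± 1.3 CPM (edgeR, adjusted p = 0.0677).

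Of 9 tested genes for other prostanoids 1 fell and 0 rose, with 1 higher at an unadjusted p under 0.05, and 0 higher and 3 lower in DESeq2. Hpgds, which makes PGD2 in immune cells, had 3.25, 10.2 and 22.9 CPM with vehicle and 1.38, 1.91 and 0.649 CPM with rebamipide and fell by 3.20 on the log2 scale (edgeR, adjusted p = 0.0409). Akr1b3 had 79.9 ± 10.9 and 120 ± 8.62 CPM (edgeR, adjusted p = 0.0653), and the PGF2α receptor gene Ptgfr had 16.9 ± 8.1 and 3.27 ± 3.29 CPM (edgeR, adjusted p = 0.133).

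The genes most like Ptges, Hpgd and Ptger4 across the 6 libraries were found among 12795 genes with a mean of at least 50 counts, by the root mean square difference of log2 CPM centred on each gene's mean. Ptges itself deviated by 0.77 on this measure, and the nearest genes were Cbr3 at 0.106, Mansc1 at 0.107 and Cd163, a macrophage surface receptor, at 0.121. Hpgd deviated by 0.55, and Nfatc4 at 0.076, Matn2 at 0.083 and Atp2b4 at 0.109 came closest. For Ptger4, which deviated by 0.45, the nearest were Fam214b at 0.097, Phactr4 at 0.10 and Zw10 at 0.104. For Ptges2, added after its values were seen, with a deviation of 1.22, they were Ndufc2 at 0.079, Tha1 at 0.086 and Ndufs8 at 0.089, of which Ndufc2 and Ndufs8 encode subunits of respiratory complex I. These likenesses describe 6 libraries that share a treatment contrast, and the nearest genes were picked for being near.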

How the data were processed

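Bulk RNA-seq libraries of 3 vehicle and 3 rebamipide skins were used as labelled, and each of the 12 value columns was assigned to its sample by name. Per the labels, fastp 0.22.0, HISAT2 2.1.0, HTSeq 0.9.1 and build GRCm39 were used for processing, and the strand setting of the counting is not given in the sources used here. The authors deposited raw, unscaled read counts per gene. Beside them stood FPKM deposited by the authors, which equalled counts divided by gene length and summed counts (largest relative deviation 5.1e-14). The columns of gene annotation were used for names and positions only. Libraries of a group differed by more than counting error (chi-square over its degrees of freedom at least 83.1).

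The test was the quasi-likelihood F test of edgeR 4.0.16 under R 4.3.3, on counts that had passed filterByExpr and been scaled by TMM, with p-values adjusted by Benjamini-Hochberg over 14875 genes and a threshold of 0.05. Normalized CPM are counts relative to the TMM-scaled library size, and TMM factors were 1.21 to 1.279 for vehicle and 0.7464 to 0.9286 for rebamipide. Exact permutation tests were two-sided on 3 against 3 libraries, where the smallest p is 0.1. Ratios within a library were taken on FPKM. Alternatives were DESeq2 1.42.0, limma 3.58.1 (voom, and log2(FPKM + 1) and log2(FPKM + 0.1)), other normalizations and filters, a replicate block and each library left out. The fits were tested on simulated data. Genes named by rule are the 10 members, the up to 3 tested genes of smallest p in each pathway list and the nearest 3 genes of Ptges, Hpgd and Ptger4. Further pathway genes, single marker genes and the nearest genes of Ptges2 were named after values were seen. The members and lists were chosen with earlier results of these data known.

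Promoter sequences are from RefSeq (GRCm38.p6), matched by symbol, and were not mixed with the positions of the deposited table. Their start sites are those of RefSeq and were not checked against these libraries. An item that bears on the reads of Ptger1 is not reported here.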

Additional observations from a re-analysis of the deposited data

How the results depend on the processing

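Ptges2 stayed higher with a log2 fold change of 1.57 to 2.56 and was called in 20 of 22 alternatives; the exceptions were the edgeR fits without vehicle replicate 2 and without rebamipide replicate 2. Among the other 9 genes, edgeR gave reversed signs for Ptges3 without vehicle replicate 1 (0.02) and Ptger3 without vehicle replicate 3 (0.24), and DESeq2 with a library left out, added after the data were seen, gave 0.04 and 0.24. Without 1 library Ptges3 ranged from -0.26 to 0.04 and Ptger3 from -0.88 to 0.24. The cause was not tested. These DESeq2 fits called Ptgs1 in 2 of 6, and Ptges, Ptger1 and Ptger4 in 1 of 6 each. Over all genes, 2093 were called higher and 968 lower. Total counts alone gave 1258 and 3752, so the split of calls depends on the scale, and limma gave 4809 lower on log2(FPKM + 1), and 1391 higher and 4777 lower on log2(FPKM + 0.1). A minimum of 10 counts in every sample called 1512 lower, DESeq2 2552 lower, and the thresholds of the study 2161 lower. Without 1 library (edgeR or DESeq2) 0 to 3628 genes were called higher and 0 to 4251 lower. Of the 10 PGE2 genes, 1 was called higher and 0 lower. The filter of 10 counts, which drops Ptgs2 and Ptger1, gave 2 higher and 1 lower, DESeq2 2 and 2, and the thresholds of the study 3 and 1, while total counts alone and both FPKM scales gave 3 lower. Without 1 library these were 0 to 3 higher and 0 to 4 lower. In the pathway lists 23 were called higher and 8 lower, with 17 lower by total counts alone, 16 by DESeq2, 26 and 25 on log2(FPKM + 1) and log2(FPKM + 0.1), and 0 to 31 higher and 0 to 25 lower without 1 library.

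No pairing by replicate number was seen, with correlations of same-numbered deviations of -0.073, -0.0282 and -0.0392. Taken over all genes tested, these correlations cannot exclude a smaller effect shared by same-numbered libraries. With the replicate block edgeR called 1432 genes higher and 855 lower, 3 pathway genes lower, and Ptges2 as the single PGE2 gene (adjusted p = 0.0166).

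Within-library log2 differences without 1 library were -0.17 to 0.36 for Ptges to Hpgd, -0.64 to 1.21 for Ptger3 to Ptger4, -0.79 to 0.41 for Ptger4 to the 4 receptors, 0.76 to 2.05 for Ptgs1 to Ptgs2, -1.41 to -0.56 for Ptges to the 3 synthases and 2.82 to 3.83 for Ptges2 to Ptges. The order of mean FPKM pooled over both groups, with enzymes as Ptges3, Hpgd, Ptges, Ptgs1, Ptges2 and Ptgs2, kept 7 to 10 of the 10 genes at their rank under 9 alternatives, and the orders within each group were not recomputed under them. The 7 to 32 reads of Ptger1 limit its precision most.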
